A study of Homo sapiens with 3 samples.

Results

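The genes described here encode the proton pump of the lysosome, its proteases and its best-known membrane proteins. They were chosen by a rule on symbols that used no measured value, although earlier results of these data were known. The rule took the V-ATPase subunits whose symbols begin with ATP6V0 or ATP6V1, the accessory genes ATP6AP1 and ATP6AP2, and the cathepsins. It also took the LAMP glycoproteins, the mucolipin channels, the cholesterol exporters NPC1 and NPC2, and the transcription factors TFEB and TFE3. This rule found 46 protein-coding genes among the 26108 genes of the table, and 35 of them averaged 0.5 FPKM or more across the libraries. FPKM is a fragment count divided by transcript length and library total. It does not make libraries of differing composition equal, so differences between libraries depend on the scaling used.

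LX-2 cells are an established line of human hepatic stellate cells, the liver cell type that turns into a matrix-producing fibroblast. Separate cultures received vehicle, 50 ng/mL (the lower dose) or 100 ng/mL (the higher dose) of recombinant human FGF19 (rhFGF19), a gut hormone, and the messenger RNA of each was sequenced as 1 library per condition. All were LX-2 cells, and the labels name no engineered allele. The series text gives 24 h of treatment, whereas the sample descriptions name 72 h and 73 h, with the doses of the treated libraries swapped, so the groups here follow the titles and the agent field. With 1 library per condition there was no replicate error and no test, every difference compares libraries and not conditions, and both doses share the vehicle library. The design cannot tell rhFGF19 apart from anything else that set the vehicle library aside, nor fewer cells of a type from less RNA per cell. A value of at least 1 FPKM was listed for 8890 genes in vehicle and for 10925 and 10894 genes at 50 and 100 ng/mL, and no read counts were given, so the depth is unknown.

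Lysosomes digest what the cell takes up or sets aside for recycling. The V-ATPase acidifies them: its V1 sector splits ATP in the cytosol and turns a rotor, and its V0 sector passes protons through the membrane. Cathepsins are proteases that work in the acid lumen, LAMP glycoproteins line the membrane, mucolipins release calcium, NPC1 and NPC2 pass cholesterol out, and TFEB and TFE3 switch on many of these genes by binding a short palindrome in their promoters. In hepatic stellate cells lysosomal turnover is known for its part in the use of stored retinoid droplets and in collagen handling.

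The palindrome that TFEB and TFE3 are known to bind is CACGTG, and a longer form is TCACGTGA. Both read the same on either strand, and every copy of the longer form contains the shorter one. RefSeq promoter windows of 300 bases, 250 before and 50 from the annotated start (assembly GRCh38.p14), were matched by symbol for 32 of the 46 genes, in 41 windows. CACGTG was present in 10 of these windows, or 24.4%, which belonged to 9 genes, and in 7.26% of all 35116 windows. TCACGTGA was present in 5 windows, or 12.2%, and in 0.980% of all windows. Among windows of genes that passed the filter on low FPKM, 9.41% held the shorter and 1.77% the longer form. These matches describe letters in a window and no binding was measured.

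The stretches around the palindromes of 7 genes are shown because they belong to several roles of the set, pump subunits, proteases, a channel and a glycoprotein, and carry the regulatory letters the set is best known for. Capitals mark CACGTG or, where the longer form is complete, TCACGTGA, and each stretch is written 5′ to 3′ on the strand of its gene. ATP6V1G1 (chr9:114587691-114587736, plus strand), ATP6V0D1 (chr16:67481191-67481236, minus strand), ATP6V0B (chr1:43974883-43974946, plus strand), CTSA (chr20:45891273-45891334, plus strand), CTSD (chr11:1763949-1763994, minus strand), MCOLN1 (chr19:7522563-7522623, plus strand) and LAMP1 (chr13:113297027-113297122 and chr13:113297191-113297236, plus strand) are given in GRCh38.p14. All stretches end before the start annotated by RefSeq, and those of ATP6V0B, CTSA and CTSD lie inside the longer gene spans of the deposited table.
ATP6V1G1: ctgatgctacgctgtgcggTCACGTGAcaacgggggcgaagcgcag
ATP6V0D1: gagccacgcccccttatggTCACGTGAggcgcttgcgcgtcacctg
ATP6V0B: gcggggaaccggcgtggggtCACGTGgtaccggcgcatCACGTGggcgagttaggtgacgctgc
CTSA: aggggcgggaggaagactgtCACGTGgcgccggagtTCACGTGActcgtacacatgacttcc
CTSD: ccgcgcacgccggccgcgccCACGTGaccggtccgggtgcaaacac
MCOLN1: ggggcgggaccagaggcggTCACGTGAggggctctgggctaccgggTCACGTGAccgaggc
LAMP1 upstream stretch: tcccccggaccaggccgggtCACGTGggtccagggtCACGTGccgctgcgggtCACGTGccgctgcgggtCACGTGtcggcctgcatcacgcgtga
LAMP1 downstream stretch: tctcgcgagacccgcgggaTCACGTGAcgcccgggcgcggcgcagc

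LAMP1 held the most copies, with 4 in the upstream stretch, 1 in the downstream one and 1 more across the start itself, which is not shown. ATP6V0B, CTSA, MCOLN1 and CTSF held 2 each before the start. ATP6V1G1, ATP6V0D1 and CTSD held 1 each, and ATP6V0E2 completes the 9 genes.

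The genes of the set did not differ from vehicle in 1 direction. Differences were computed as log2(FPKM + 0.1), which understates those of low genes, and a gene was counted as higher or lower when it passed 2-fold. At the lower dose 12 of the 35 lay more than 2-fold above vehicle, or 34.3%, against 39.4% of all 12447 genes that passed the filter. At the higher dose 11 were higher, or 31.4%, against 38.5% of all genes. CTSW was the 1 gene of the set past 2-fold lower at the lower dose, where 1.78% of all genes were, and none was past it at the higher dose, where 1.58% of all genes were. These shares are near or below those of all genes. The median log2 fold change of the set was -0.05 and -0.10 at the lower and higher dose, whereas all genes had medians of 0.62 and 0.61. This gap differed between settings. Without the filter, which lets in genes averaging under 0.5 FPKM, the medians were 0.27 and 0.22 for the set, against 0.27 at both doses for all genes. With a stricter filter of 1 FPKM the gap stayed, at 0.099 and 0.080 against 0.52 and 0.51. With quantile normalization the medians were 0.16 and 0.10, against 0.11 and 0.087. The 35 divided almost evenly, with 17 genes above 0 and 18 below 0 at both doses, on the scale of the deposited values. Relative to genes of similar transcript GC content, 10 were above 0 and 25 below, and 20 of the 35 kept their sign at both doses. With a trend on transcript length removed as well, 17 kept it. At 1 or both doses, ATP6V0E1, CTSB, CTSZ, CTSA and NPC2 changed sign with quantile normalization, CTSA and MCOLN1 with TPM, values scaled to an equal sum per library, and CTSL and LAMP1 with the length trend alone removed. Of the 35, 16 overlap another listed gene, and for 8 that neighbour reached 1 FPKM.

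**Figure D1:**
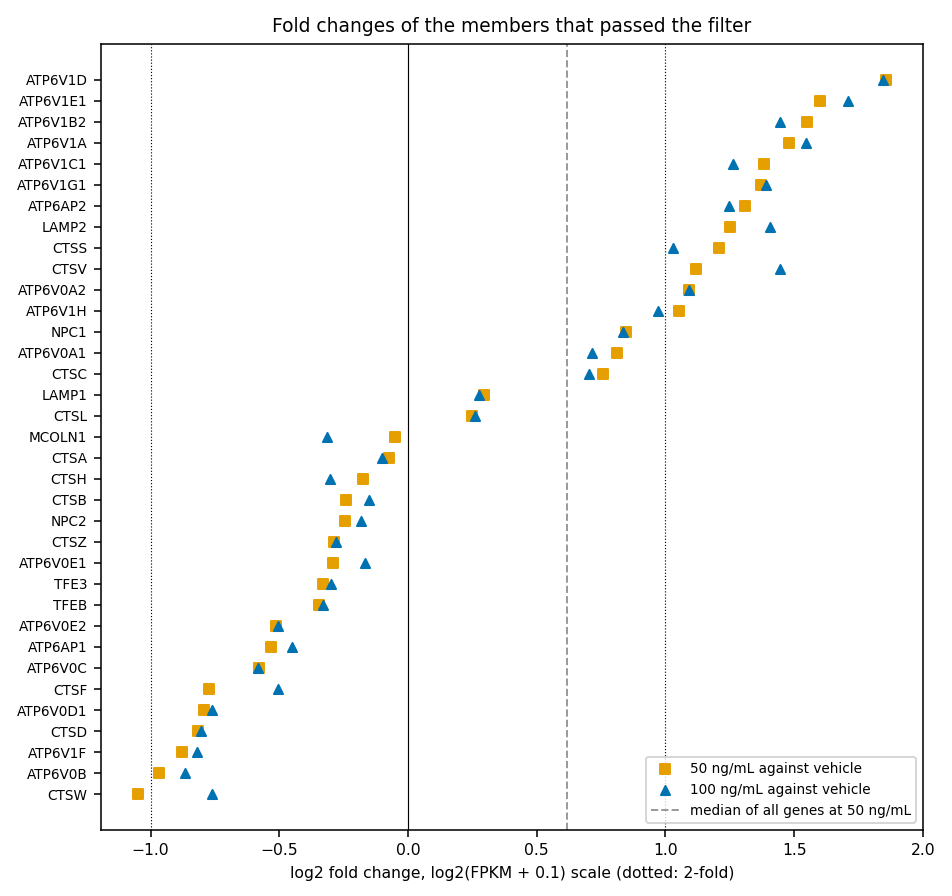
Log2 fold change on the log2(FPKM + 0.1) scale (horizontal axis) of the 35 genes that passed the filter, at 50 ng/mL (squares) and 100 ng/mL (triangles) against the same vehicle library. The 17 genes above 0 reach 1.86 and the 18 below 0 reach -1.05, and the dashed line marks the median of all genes at 50 ng/mL, 0.62.

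The catalytic head of V1 is a ring of A and B subunits that binds and splits ATP. ATP6V1A, the A subunit (chr3:113747033-113812056), had 1 FPKM in vehicle and 2.97 and 3.11 at the lower and higher dose, log2 fold changes of 1.48 and 1.55. ATP6V1B2, the B subunit of most tissues, had 4.29, 12.77 and 11.85 FPKM in the same order, log2 fold changes of 1.55 and 1.44. Both were about 3-fold higher in the treated libraries, which lay close together. ATP6V1B1, the B subunit of kidney and inner ear, stayed at 0.03 FPKM or less, and ATP6V1B2 made 99.8% of the B subunit FPKM in vehicle.

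The stalks of V1 hold the head in place and carry its rotation. ATP6V1D, part of the central rotor (chr14:67294371-67359832), had 3.23, 11.95 and 11.88 FPKM and the largest log2 fold changes of the set, 1.86 and 1.85, and it overlaps MPP5 on the opposite strand, which had 0.90, 2.84 and 2.95 FPKM. ATP6V1E1, of the outer stalks, had 3.52, 10.87 and 11.75 FPKM, log2 fold changes of 1.60 and 1.71. ATP6V1G1, its partner, had 6.41, 16.75 and 16.98 FPKM, log2 fold changes of 1.37 and 1.39. All 3 were well over 2-fold higher at both doses, and ATP6V1G1 is the gene among them with TCACGTGA in the promoter shown above. ATP6V1C1, a subunit that lets V1 come off V0, had 0.93, 2.59 and 2.37 FPKM, log2 fold changes of 1.38 and 1.26. ATP6V1H, a regulatory subunit, had 2.54, 5.37 and 5.07 FPKM, log2 fold changes of 1.05 and 0.97, so that it lay on either side of 2-fold at the 2 doses.

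ATP6V1F, a small subunit of the central rotor (chr7:128862856-128865847), stood apart from every other V1 gene. It had 295.38 FPKM in vehicle and 160.83 and 167.19 at the lower and higher dose, log2 fold changes of -0.88 and -0.82. Of the 8 V1 genes above the filter, 7 were over 2-fold higher at the lower dose and 6 at the higher dose, against 39.4% and 38.5% of all genes, ATP6V1F being the 1 below 0. With the GC trend removed none was more than 2-fold higher, and 4 were below 0 at the lower dose and 3 at the higher dose. The V1 median was 1.43 and 1.42 at the lower and higher dose.

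The V0 sector was on the other side of 0 for most of its genes. ATP6V0C, the repeated proton-carrying subunit of the rotating ring, had 146.35 FPKM in vehicle and 97.82 and 97.80 at the lower and higher dose, a log2 fold change of -0.58 at both doses. ATP6V0B, a second ring subunit, had 58.25, 29.77 and 31.91 FPKM, log2 fold changes of -0.97 and -0.87. ATP6V0D1, which couples the ring to the V1 rotor, had 60.64, 34.98 and 35.76 FPKM, log2 fold changes of -0.79 and -0.76. The pseudogene ATP6V0CP3 had log2 fold changes of 0.42 and 0.65, and how reads were divided between it and ATP6V0C is not given in the sources used here. None of the 3 subunits reached 2-fold lower, although ATP6V0B came within a few hundredths of it at the lower dose.

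The small e subunits of V0 were lower too, although with quantile normalization ATP6V0E1 was at -0.016 at the lower dose and 0.076 at the higher dose on the log2 scale. ATP6V0E1 (chr5:172983771-173035445) had 143.25, 117.00 and 127.48 FPKM, log2 fold changes of -0.29 and -0.17, and ATP6V0E2 had 21.66, 15.13 and 15.23 FPKM, a log2 fold change of -0.51 at both doses. The a subunits, which form the path of the proton and steer the pump to its membrane, were on both sides. ATP6V0A1 had 3.96, 7.03 and 6.56 FPKM, log2 fold changes of 0.81 and 0.71. ATP6V0A2, the form known from Golgi and endosomes, had 0.59, 1.37 and 1.37 FPKM, a log2 fold change of 1.09 at both doses. These were the 2 V0 genes above 0. Of the 7 V0 genes that passed, ATP6V0A2 was the 1 past 2-fold, against 39.4% and 38.5% of all genes at the lower and higher dose. With the GC trend removed ATP6V0A2 was at -0.15 and -0.14. The V0 median was -0.51 at both doses.

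V0 subunits with other symbols were looked up from a separate list. TCIRG1, the a3 subunit of lysosomes and osteoclasts, had 24.99 FPKM in vehicle and 16.75 and 17.15 at the lower and higher dose, log2 fold changes of -0.57 and -0.54. It made 83.9% of the FPKM of the a subunit genes in vehicle, 65.9% at the lower dose and 67.8% at the higher dose, whereas ATP6V0A1 made 13.3%, 27.7% and 25.9%. RNASEK, a further V0 subunit, had 127.96, 76.64 and 74.94 FPKM, log2 fold changes of -0.74 and -0.77. Of the accessory proteins that help V0 to assemble, ATP6AP1 had 51.53, 35.60 and 37.71 FPKM, log2 fold changes of -0.53 and -0.45. ATP6AP2, also known as the prorenin receptor, had 3.22, 8.13 and 7.78 FPKM, log2 fold changes of 1.31 and 1.25. The accessory pair therefore differed in direction.

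**Figure D2:**
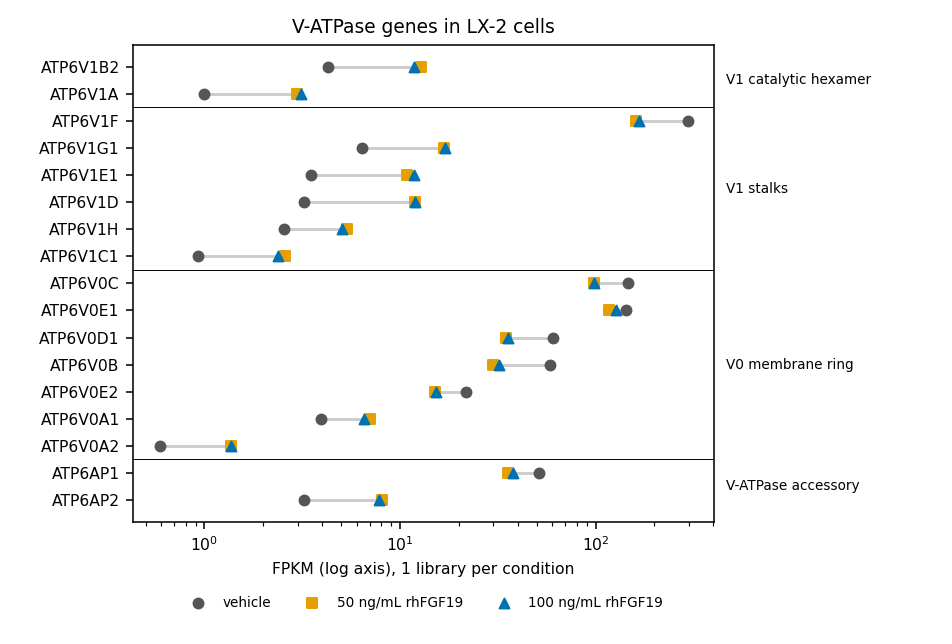
FPKM on a log axis of the 17 V-ATPase genes that passed the filter, 1 point per library, grouped by role, with a grey line joining the 3 libraries of a gene. ATP6V1F, at 295.38 FPKM in vehicle, and the 5 V0 genes above 10 FPKM lie to the right with vehicle highest, while the other V1 genes lie between 0.93 and 6.41 FPKM in vehicle and are higher in both rhFGF19 libraries.

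One assembled pump needs fixed numbers of each subunit, and the messenger levels were far from even. Taking the 12 subunits that form the common pump, each by its most abundant ATP6V gene, and leaving out the a subunit, the highest level over the lowest was 318-fold in vehicle, 62.1-fold at the lower dose and 70.5-fold at the higher dose. ATP6V1F was the highest and ATP6V1C1 the lowest in each library. The SD of log2 FPKM over these 12 genes was 3.0 in vehicle and 1.99 and 2.03 at the lower and higher dose. The levels were closer to each other in the treated libraries. Fold change fell with vehicle level over all genes too, with a Spearman correlation of -0.60 at the lower dose over 12447 genes, against -0.67 over the 35. The vehicle values enter both sides of these correlations, so they are negative in part by construction. Without ATP6V1F, the 7 remaining V1 genes spanned 6.89-fold in vehicle, 6.47-fold and 7.16-fold at the 2 doses. The 4 V0 genes among the 12 spanned 2.51-fold in vehicle, 3.93-fold at the lower dose and 3.99-fold at the higher dose. The narrowing lay between ATP6V1F with the V0 genes and the other V1 genes, and not within either group.

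The cathepsins were led by 3 genes in each library. CTSD, the aspartic protease of lysosomes (chr11:1752755-1764573), had 315.65 FPKM in vehicle, the highest level of the whole set, and 179.43 and 180.67 FPKM at the lower and higher dose, log2 fold changes of -0.81 and -0.80. CTSZ, a carboxypeptidase, had 210.92, 172.94 and 173.59 FPKM, log2 fold changes of -0.29 and -0.28. CTSL, an endopeptidase that also cuts matrix proteins, had 140.42, 166.95 and 168.26 FPKM, log2 fold changes of 0.25 and 0.26. Together they made 80.7% of the cathepsin FPKM in vehicle, 78.2% at the lower dose and 77.9% at the higher dose. Within this sum CTSD went from 38.2% in vehicle to 27.0% and 26.9%, while CTSL went from 17.0% to 25.1% at both doses and CTSZ was at 25.5% in vehicle and 25.9% at the higher dose.

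Among cathepsins of middle abundance, CTSB and CTSA differed little from vehicle and CTSF more. CTSB, a cysteine cathepsin of most cell types, had 55.56, 47.05 and 50.02 FPKM, log2 fold changes of -0.24 and -0.15. CTSA, a serine carboxypeptidase that protects other lysosomal enzymes, had 64.11, 60.86 and 59.80 FPKM, log2 fold changes of -0.07 and -0.10, close to no difference, and its promoter shown above holds both forms of the palindrome. CTSF, a cysteine protease, had 14.24, 8.28 and 10.00 FPKM, log2 fold changes of -0.78 and -0.51. CTSF is 1 of the few genes whose treated libraries were visibly apart.

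CTSW, the cathepsin of cytotoxic lymphocytes (chr11:65879837-65883741), had the lowest fold change of the set at the lower dose but not at the higher one. It had 12.74 FPKM in vehicle and 6.11 and 7.47 at the lower and higher dose, log2 fold changes of -1.05 and -0.76. On the opposite strand it overlaps FIBP, which had 98.33, 55.52 and 56.89 FPKM. Whether reads were counted by strand is not given in the sources used here, so reads of CTSW and FIBP cannot be told apart.

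Cathepsins of low level were mostly higher in the treated libraries. CTSS, a protease of antigen-presenting cells, had 3.45, 8.11 and 7.14 FPKM, log2 fold changes of 1.21 and 1.03. CTSV, a close relative of CTSL, had 0.55, 1.31 and 1.67 FPKM, log2 fold changes of 1.12 and 1.45, the largest gap between the doses in the set. CTSC, which activates granule proteases, had 5.57, 9.49 and 9.14 FPKM, log2 fold changes of 0.76 and 0.70. CTSS and CTSV were thus past 2-fold at both doses, and CTSC was not. CTSH, an aminopeptidase, had 2.87, 2.53 and 2.31 FPKM, log2 fold changes of -0.18 and -0.30. In all, 2 of the 11 cathepsins that passed were more than 2-fold higher at each dose, against 39.4% and 38.5% of all genes, and 7 were below 0.

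The pair of abundant LAMP glycoproteins differed in level and in fold change. LAMP1 had 71.89, 88.23 and 87.10 FPKM in vehicle and at the lower and higher dose, log2 fold changes of 0.30 and 0.28, below the median of all genes. LAMP2, which also serves chaperone-mediated autophagy (chrX:120426148-120469365), had 2.51, 6.11 and 6.82 FPKM, log2 fold changes of 1.25 and 1.41, past 2-fold at both doses. MCOLN1, the lysosomal calcium channel, had 8.69, 8.38 and 6.97 FPKM, log2 fold changes of -0.05 and -0.31, and its span overlaps PNPLA6 on the same strand, a gene with 20.80, 16.81 and 16.35 FPKM.

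The cholesterol exporters also lay on both sides of 0. NPC1, the membrane protein, had 7.39, 13.36 and 13.26 FPKM, log2 fold changes of 0.85 and 0.83, and it overlaps RMC1 on the opposite strand, which had 4.30, 10.89 and 10.74 FPKM. NPC2, the soluble carrier that hands cholesterol to NPC1, had 66.01, 55.75 and 58.09 FPKM, log2 fold changes of -0.24 and -0.18. Neither passed 2-fold.

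TFE3 was far more abundant than TFEB, and both had log2 fold changes a little below 0 on the deposited scale. TFE3 had 82.09, 65.35 and 66.72 FPKM, log2 fold changes of -0.33 and -0.30. TFEB had 1.07, 0.82 and 0.83 FPKM, log2 fold changes of -0.35 and -0.33, which became -1.22 and -1.19 with quantile normalization and 0.07 at both doses with the GC trend removed. These genes are mostly controlled through the location of their proteins, which RNA levels do not show.

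**Figure D3:**
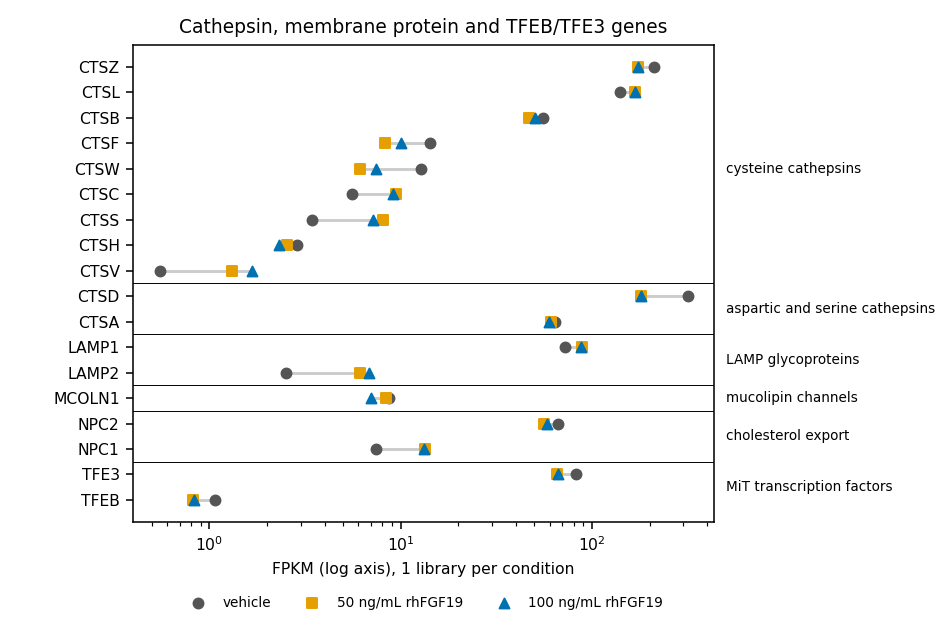
FPKM on a log axis of the 11 cathepsin genes and 7 other genes that passed the filter, 1 point per library, grouped by role, with a grey line joining the 3 libraries of a gene. CTSD (315.65 to 179.43 FPKM) has the widest gap among the abundant genes, and LAMP2 (2.51 to 6.82 FPKM), CTSS and CTSV show treated libraries to the right of vehicle.

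The remaining 11 genes did not pass the filter and lay between 0 and 0.61 FPKM in each library. They were the tissue-restricted V-ATPase genes ATP6V1B1, ATP6V1C2, ATP6V1E2, ATP6V1G2 and ATP6V0A4, the cathepsins CTSE, CTSK and CTSO, and LAMP3, MCOLN2 and MCOLN3. CTSK, the collagen-cutting cathepsin of osteoclasts and fibroblasts, had 0.26, 0.46 and 0.21 FPKM. At such levels the values do not order the libraries.

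The treated libraries differed little from each other. None of the 35 genes was past 2-fold between the doses, where 0.852% of all genes were higher and 0.884% lower. The median log2 difference was 0.01, with an SD of 0.12 over the genes, and the largest size was 0.33, for CTSV. Among the 18 genes averaging 10 FPKM or more it was 0.27, for CTSF. These differences between the doses give the only measure of spread here, and they hold any effect of dose as well.

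Genes of the set with AT-rich transcripts were higher and those with GC-rich transcripts lower. The Spearman correlation between fold change and the median GC content of a gene's transcripts was -0.81 over 35 genes at the lower dose and -0.83 at the higher dose. Over all 12397 genes with a GC value it was -0.77 at both doses. Between the doses it was 0.15 for the set and 0.067 for all genes. These points share their libraries and, for both doses, the vehicle values, so the correlations are descriptions. The 8 genes under 45% GC were all more than 2-fold higher at the lower dose, where 85.5% of all genes of that GC content were. From 45% to 50%, 3 of 7 were, against 57.4% of all genes, and from 50% to 55%, 1 of 4 was, against 22.4%. None of the 11 genes from 55% to 60% or of the 5 at 60% and above was, against 5.87% and 1.97% of all genes.

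The 11 genes past 2-fold at both doses had transcripts of 37.4% to 50.5% GC and vehicle levels of 0.55 to 6.41 FPKM. The 23 genes more than 2-fold higher at neither dose had a median GC content of 57.3% and a median vehicle level of 58.3 FPKM. Within the set, level and GC content themselves went together in vehicle, with a Spearman correlation of 0.64, against 0.47 at each dose. Over all genes these values were 0.50 in vehicle and 0.25 at each dose. The part of GC content in the fold changes of single genes was not tested, and the design cannot tell it apart from rhFGF19.

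**Figure D4:**
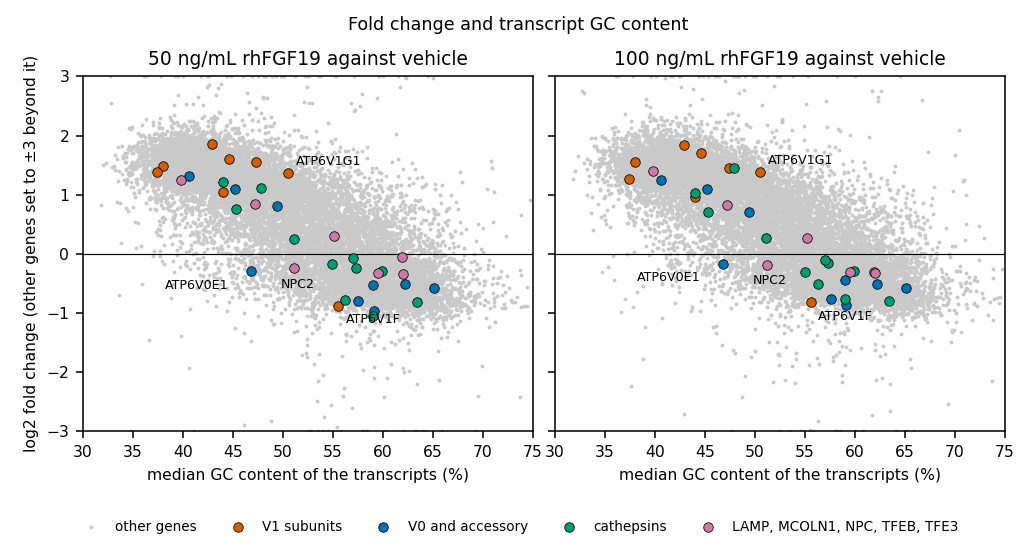
Log2 fold change against vehicle (vertical axis) and median GC content of the transcripts (horizontal axis) for the 35 genes, coloured by role, over all other genes that passed the filter (grey), at 50 ng/mL (left) and 100 ng/mL (right). The coloured points follow the slope of the grey ones, with ATP6V0E1 (46.8% GC), NPC2 (51.2%) and ATP6V1F (55.6%) low and ATP6V1G1 (50.5%) high for their GC content.

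The trend over all genes was then removed by local regression, so that each value was set against genes of similar GC content. None of the 35 then lay more than 2-fold higher, where 3.85% of all genes were at the lower dose and 3.39% at the higher dose. ATP6V0E1 was the 1 gene more than 2-fold lower, where 5.07% and 4.51% of all genes were. Its log2 values were -1.41 and -1.27, although its deposited levels differed little between the libraries. The V1 median was 0.14 and 0.23 at the lower and higher dose, the V0 median -0.15 and -0.14, and the cathepsin median -0.28 and -0.34.

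Relative to genes of similar GC content, single genes kept some distance on the log2 scale. At the lower and higher dose ATP6V1G1 was at 0.67 and 0.70, ATP6V1B2 at 0.49 and 0.40, ATP6V1D at 0.47 and 0.48, and ATP6V1E1 at 0.31 and 0.44. ATP6V1F was at -0.91 and -0.86, NPC2 at -0.86 and -0.78, ATP6V0B at -0.70 and -0.61, and ATP6V0D1 at -0.63 and -0.61. By contrast ATP6V1A was at -0.02 and 0.05 and LAMP2 at -0.23 and -0.06, small beside their differences from vehicle. With GC content taken instead from the longest transcript, or with a length trend removed as well, both chosen after seeing the data, ATP6V1D lay between 0.47 and 0.70 and ATP6V1E1 between 0.31 and 0.69. ATP6V0E1 lay between -1.54 and -1.20 and ATP6V1F between -0.99 and -0.81. ATP6V1G1 ranged from 0.01 to 0.78 and ATP6V1B2 from 0.03 to 0.49, so their distances rested on the choice of transcript.

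Genes with the palindrome in the promoter did not stand together by fold change. For the 9 genes with CACGTG the median was -0.51 on the log2 scale at both doses, from -0.97 for ATP6V0B to 1.37 for ATP6V1G1 at the lower dose, and 1 of the 9 was more than 2-fold higher. The 17 other genes with a promoter window and a passing level had medians of 0.25 and 0.26, and 5 of them were more than 2-fold higher. Only 26 of the 35 genes had a window. ATP6V1A, ATP6V1B2, ATP6V1C1, ATP6V1H, CTSS and LAMP2, all more than 2-fold higher at the lower dose, were in neither group. Nor were ATP6V0E1, CTSB and CTSW, which were not higher. Median transcript GC content was 57.6% in the first group and 51.1% in the second. With the GC trend removed the medians were -0.09 at both doses for genes with CACGTG and -0.15 and -0.14 for those without. The groups overlapped widely on either scale.

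Other genes of the lysosome were counted from separate lists, beside 39.5% higher and 1.75% lower at the lower dose and 38.6% and 1.47% at the higher dose among all 12422 symbols. Of 37 other lysosomal hydrolases that passed, 8 were more than 2-fold higher at the lower dose and 9 at the higher dose, and none was lower, with medians of -0.01 and -0.05. NAGLU, which trims heparan sulfate, had 53.50, 29.88 and 32.66 FPKM, log2 fold changes of -0.84 and -0.71. Of 30 other lysosomal membrane proteins, 11 were higher at the lower dose and 12 at the higher dose, with medians of -0.10 and -0.03. SLC17A5, the sialic acid exporter, had 0.53, 2.09 and 2.37 FPKM, log2 fold changes of 1.80 and 1.97. The medians of both lists lay below those of all genes on the deposited scale. With the GC trend removed they were -0.04 and -0.05 for the hydrolases and -0.09 and -0.03 for the membrane proteins. All genes then had medians of 0.0080 and 0.0052.

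The genes that assemble or regulate the V-ATPase gave 3 higher of 8 at each dose, with medians of 0.53 and 0.48. With the GC trend removed these medians were -0.26 and -0.30. OXR1, a TLDc protein that acts on the pump, had 0.24, 1.05 and 0.72 FPKM, log2 fold changes of 1.76 and 1.27, while ROGDI, of the complex that rejoins V1 to V0, had 11.68, 6.92 and 7.22 FPKM, log2 fold changes of -0.75 and -0.69. The Ragulator and Rag genes, which dock mTORC1 on the lysosome next to the V-ATPase, gave 8 higher and 1 lower of 17 at each dose, with medians of 0.95 and 0.85, and of -0.19 and -0.18 with the GC trend removed. SLC38A9, the arginine sensor, had 0.53, 1.91 and 1.81 FPKM, log2 fold changes of 1.67 and 1.60. LAMTOR4, a Ragulator subunit, was the 1 lower, with 64.62, 31.33 and 31.98 FPKM and log2 fold changes of -1.04 and -1.01. Other regulators of TFEB and its targets, among them calcineurin and 14-3-3 genes, gave 6 higher of 8 at each dose, with medians of 1.33 and 1.34, and of 0.05 and 0.03 with the GC trend removed. YWHAE, a 14-3-3 protein, had 30.31, 109.70 and 101.80 FPKM, log2 fold changes of 1.85 and 1.75.

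Mannose-6-phosphate sorting, which delivers cathepsins to the lysosome, gave 3 higher of 14 at each dose, where 39.5% and 38.6% of all symbols were. Its medians were 0.47 and 0.46, and 0.03 and 0.06 with the GC trend removed. GNPTAB, which makes the sorting tag, had 0.59, 1.73 and 1.94 FPKM, log2 fold changes of 1.41 and 1.56. Of the cystatins, the natural inhibitors of cysteine cathepsins, 3 passed. CST3 had 101.24, 53.10 and 58.08 FPKM, log2 fold changes of -0.93 and -0.80, and CSTB had 22.84, 21.82 and 23.33 FPKM, log2 fold changes of -0.07 and 0.03. CST1 was the 1 cystatin more than 2-fold lower, with 5.93, 2 and 1.70 FPKM and log2 fold changes of -1.52 and -1.74. Among all symbols 1.75% and 1.47% were more than 2-fold lower at the lower and higher dose.

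The stellate label was checked against markers. The 15 stellate or fibroblast markers with a value summed to 824 FPKM in vehicle and 992 and 991 at the lower and higher dose, and 8 of them passed the filter. VIM made most of the sum, with 438.65, 654.31 and 648.66 FPKM. COL1A1, SPARC, PDGFRB and COL3A1 were higher than in vehicle at both doses, and TAGLN, THY1 and ACTA2 were lower, TAGLN with 222.65, 118.02 and 125.65 FPKM. COL1A2, a collagen gene of stellate cells, had 0.03, 0.10 and 0.14 FPKM. PDGFRA, LUM, DES, LRAT and HGF were under 0.1 FPKM in each library. Of macrophage markers, relevant to CTSS, which macrophages are known to express, 4 of 12 had a value and 2 passed, and their sum was 5.45, 3.34 and 3.20 FPKM, mostly CD14. Epithelial markers summed to 504, 309 and 303 FPKM over 7 genes of which 3 passed, almost all KRT18 and KRT8, with CDH1 and ESRP1 under 0.1 in each library. Hepatocyte markers summed to 11.4, 12.7 and 11.6 FPKM over 10 genes of which 2 passed, with HNF4A and TTR under 0.1. Endothelial markers summed to 0.74, 1.04 and 1.07 FPKM over 6 genes, and none passed. The part of other cells in the values of the lysosomal genes was not tested.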

How the data were processed

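Reads were mapped by the authors with HISAT2, and 1 deposited FPKM value per gene was given for each of 3 libraries. Their processing notes list HISAT2 2.0, StringTie 1.3.0 and Bowtie 0.12.2 with the builds hg19 and mm8, with no role given, and strandedness is not given in the sources used here. The deposited coordinates overlapped those of the same genes in GENCODE v29 (GRCh38) for 99.9% of 25531 genes and for 46 of the 46 genes described. Per-sample columns not used: 0.

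From the deposited FPKM, log2(FPKM + 0.1) was subtracted between libraries for genes with a mean of 0.5 or more. A gene was called at an absolute difference above 1. Genes sharing a symbol were summed for the lists. FPKM keeps no read counts, so precision is unknown beyond the 2 decimals written. GC content and length were medians over the GENCODE v29 transcripts listed for a gene available for 99.6% of the genes. Lowess removed trends with a span of 0.3. Promoter windows came from RefSeq. The genes and lists were chosen with earlier results of these data known. Every gene of the set could be named, and from each list at most 2 genes with the highest and 2 with the lowest mean fold change, together with V-ATPase genes of other symbols and markers. Some genes of the lists are not reported here by name. The lists held V-ATPase assembly, Ragulator and Rag, TFEB partners, hydrolases, membrane proteins, mannose-6-phosphate sorting, cystatins, autophagosome machinery, lysosome movement and markers of 5 cell types. Tools were Python 3.11.15, NumPy 2.4.6, pandas 2.3.3, statsmodels 0.14.6 and matplotlib 3.10.9, and the procedure was tested on simulated data. Alternatives changed the pseudocount, filter, scaling, trend and threshold.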

Additional observations from a re-analysis of the deposited data

How the results depend on the processing

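No paired analysis was possible because there was 1 library per condition, and for the same reason no library could be left out. Values moved when they differed by more than 0.12, the SD between the rhFGF19 libraries, and counts when they differed by more than 1.5 times. The cause was not tested, although trend removal and quantile normalization centre the values by construction. The median over all genes at 50 ng/mL was 0.62, against 0.77 with TPM, 0.39 with the median ratio set to 0, 0.11 with quantile normalization and 0.0080 with the GC trend removed. The share of all genes higher and lower at 50 ng/mL went from 39.4% and 1.78% to 9.49% and 9.95% with quantile normalization and 14.1% and 16.4% with the length trend removed. Of the 768 values of single genes under the alternatives, 310 stayed within that spread, 423 moved and 35 called ones changed sign. Changing the filter cannot alter the value of a single gene, so all values from those alternatives are among the 310 by construction.

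With a pseudocount of 1, 7 of the 35 genes were higher at each dose, where 17.6% and 16.7% of all genes were at 50 and 100 ng/mL. At 50 ng/mL 0 were lower, where 0.627% of all genes were. Without a filter the medians of the set were 0.27 and 0.22 at 50 and 100 ng/mL, against 0.27 at both doses for all genes. The set then lay close to all genes at 50 ng/mL, with genes averaging under 0.5 FPKM let in. When genes had to average 1 FPKM or more, the set had medians of 0.099 and 0.080, against 0.52 and 0.51 for all genes. With TPM 0 were lower at 50 ng/mL, where 1.20% of all genes were, with a median of 0.075, against 0.77 for all genes. With the median ratio set to 0, 5 and 3 were lower at 50 and 100 ng/mL, where 6.35% and 4.93% of all genes were. The medians were -0.28 and -0.32, against 0.39 and 0.40 for all genes. With quantile normalization 4 and 3 were higher, where 9.49% and 8.68% of all genes were, and 3 and 3 lower, where 9.95% and 9.22% were. The medians were 0.16 and 0.10, against 0.11 and 0.087 for all genes. With the length trend removed 3 and 2 were higher, where 14.1% and 13.6% of all genes were, and 8 and 6 lower, where 16.4% and 15.3% were. The medians were -0.48 and -0.49, against 0.046 and 0.044 for all genes. A threshold of 1.5-fold gave 6 and 5 lower, where 13.6% and 12.6% of all genes were. With the GC trend removed, 0 were higher at either dose and 1 lower at 100 ng/mL, and the same held with GC and length trends removed. GC content of the longest transcript gave 0 higher at each dose, where 3.40% and 2.99% of all genes were, and 2 lower, where 5.86% and 5.23% were. The last pair of alternatives was chosen after seeing the data.

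Some called genes fell below 0 relative to genes of similar GC content. With the GC trend removed these were ATP6V1A at -0.024 and ATP6V1H at -0.27 at 50 ng/mL, and at 50 and 100 ng/mL ATP6V1C1 at -0.13 and -0.24, ATP6V0A2 at -0.15 and -0.14, ATP6AP2 at -0.15 and -0.20, CTSS at -0.12 and -0.28 and LAMP2 at -0.23 and -0.056. With the longest transcript they were ATP6V1C1 at -0.074 and -0.19, ATP6V0A2 at -0.19 and -0.17, ATP6AP2 at -0.020 and -0.063, CTSS at -0.23 and -0.40 and LAMP2 at -0.22 and -0.052. With GC and length trends removed they were ATP6V1A at -0.14 and -0.056, ATP6V1H at -0.22 at 50 ng/mL, ATP6V1C1 at -0.050 and -0.17, ATP6V0A2 at -0.18 and -0.16, ATP6AP2 at -0.19 and -0.23, CTSS at -0.10 and -0.27 and LAMP2 at -0.30 and -0.13.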

Other observations

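Genes that build the autophagosome, which delivers its cargo to lysosomes, were described from a separate list. Of 38 that passed, 21 were more than 2-fold higher and 1 lower at each dose, where 39.5% and 38.6% of all symbols were higher at 50 and 100 ng/mL, with a median log2 fold change of 1.07 at both and a median transcript GC content of 48.9%. STX17, the fusion SNARE on the autophagosome, had 0.23 FPKM in vehicle and 1.01 and 1.05 with rhFGF19, log2 fold changes of 1.75 and 1.80. VAMP8, its partner SNARE on the lysosome, was the 1 gene lower, with 2.52, 1.08 and 1.16 FPKM and log2 fold changes of -1.15 and -1.06. With the GC trend removed the list median was 0.03 at both doses, and VAMP8 was at -1.43 at 50 ng/mL.

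Genes that tether and move lysosomes gave 6 higher of 16 at each dose, beside those same shares of all symbols, and 1 lower at 100 ng/mL, with medians of 0.04 and -0.01. RILP, which links them to dynein, had 7.64, 3.78 and 3.46 FPKM, log2 fold changes of -1.0 and -1.12.

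CST1, a cystatin, stayed more than 2-fold lower relative to genes of similar GC content, at -1.35 at 50 ng/mL.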
